A study of Rattus norvegicus with 9 samples.

Results

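The nuclear genes for subunits of the mitochondrial respiratory chain were followed in RNA sequencing of cultured rat horizontal basal cells. Members were chosen by gene symbol: the Nduf genes stand for complex I, the Sdh genes for complex II, the Uqcr genes with Cyc1 for complex III, the symbols from Cox4 to Cox8 for complex IV and the Atp5 genes for complex V. The rule took 80 of the 17315 genes counted, with 34 in complex I, 4 in complex II, 9 in complex III, 16 in complex IV and 17 in complex V. After the filter on low counts 73 members could be tested, and the other 7 (Ndufa1, Cox4i2, Cox6a2, Cox6b2, Cox6c-ps1, Cox8b and Cox8c) had too few reads, Ndufa1 with none.

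Horizontal basal cells rest on the basal lamina of the olfactory epithelium and serve there as a reserve of stem cells. The cells were a primary culture dissociated from the epithelium of SD rats, and every group was at passage 7. There were 3 groups of 3 libraries: vehicle (0.1% DMSO, labelled time 0), 6 h in 50 nM phorbol 12-myristate 13-acetate (PMA) and 12 h in 50 nM PMA, which the series treats as stages of activation. PMA is a phorbol ester that switches on protein kinase C. No vehicle library at 6 h or 12 h was analysed here, so PMA and time in culture cannot be told apart. Whether the replicates were separate cultures or animals is not given in the labels; the p-values therefore cover the spread between these libraries alone, and that spread may be technical.

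The respiratory chain passes electrons from NADH, through complex I, or from succinate, through complex II, to coenzyme Q. Complex III hands them on to cytochrome c, and complex IV to oxygen. Complexes I, III and IV pump protons out of the mitochondrial matrix as electrons pass, and complex V, the ATP synthase, lets protons flow back to make ATP. Complexes I, III, IV and V are built from subunits of both the nuclear and the mitochondrial genome, while complex II is wholly nuclear. The subunits encoded by mitochondrial DNA were not analysed here.

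Libraries held 13601635 to 19001819 reads in genes, and their TMM scaling factors were 0.879 to 0.911 at 6 h and 0.848 to 0.880 at 12 h, against 1.28 to 1.31 in vehicle. All 9 markers of horizontal basal cells were detected, and their summed level was 14885 to 17087 CPM (counts per 1e6 of the scaled library total) in vehicle, 2506 to 3017 CPM at 6 h and 3923 to 4574 CPM at 12 h. Krt5 and Krt14, at a mean of 6827 and 5325 CPM in vehicle, weigh most in that sum. Icam1 was called higher at both times (log2 fold changes of 0.30 and 1.33). Egfr was called lower at 6 h (-0.24) and higher at 12 h (0.64), and the other listed markers were called lower at both times. Among markers of other cell types, Ptprc, Col1a2, Pdgfrb, Lum, Sox10, Neurog1, Gap43, Cyp2g1, Cyp1a2 and Ermn were at 0 reads in every library, but others of the same lists were present. Cd68, a lysosomal protein abundant in macrophages, averaged 19.6 CPM in vehicle, 69.4 CPM at 6 h and 85.6 CPM at 12 h and was called higher at both times (adjusted p = 9.07e-12 and 1.43e-12). Adcy3, an adenylate cyclase of olfactory neurons, averaged 192 CPM in vehicle, 108 CPM at 6 h (called lower, adjusted p = 3.67e-08) and 184 CPM at 12 h. The endothelial receptor Kdr had 0 reads in vehicle, 0.441 to 0.761 CPM at 6 h and 1.91 to 3.64 CPM at 12 h, and Ncam1 averaged 0.254, 0.616 and 1.53 CPM in the 3 groups and was called higher at 12 h (adjusted p = 0.000529). The fibroblast and pericyte, endothelial and glial, and respiratory and microvillar lists each summed to 5.78 CPM or less in every library. Of the 6 sustentacular and gland markers counted, Krt8, Krt18 and Sox9 were present, and the list summed to 1207 to 1412 CPM in vehicle, 1954 to 2015 CPM at 6 h and 2189 to 2530 CPM at 12 h; the part of all these markers in the results below was not tested. In such bulk RNA, fewer cells of a type and less RNA per cell cannot be told apart. Over the tested members, PMA 6 h replicate 3 lay a median of 0.10 below its group mean on the log2 scale, PMA 12 h replicate 2 lay 0.13 below and PMA 12 h replicate 3 lay 0.15 above, while the median over all genes was within 0.011 of 0 in every library. PMA 12 h replicate 3 also had the fewest unmapped reads (3.88%) and the most multimapping reads (7.74%) of the 9 libraries.

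After 6 h of PMA the complex II genes and most complex I genes were lower than in vehicle. By edgeR with TMM scaling 5 complex IV genes were called higher and 0 lower (1 higher and 5 lower with no normalization). Of the 73 tested members, 37 fell and 12 rose by edgeR's quasi-likelihood test at an adjusted p under 0.05, which is 50.7% and 16.4%, beside 39.0% called lower and 37.8% called higher among all 10128 genes tested. The median log2 fold change was -0.31 over the members and -0.033 over all genes. After 12 h, 24 members (32.9%) were lower and 26 (35.6%) higher than in vehicle, beside 38.2% and 37.7% of all genes, and the medians were 0.014 for the members and -0.018 for all genes. At 12 h the members' shares were close to those of all genes.

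The direct comparison of 12 h with 6 h gave 34 members higher (46.6%) and 1 lower (1.37%), beside 25.3% higher and 25.8% lower among all genes. Its median was 0.30 over the members and 0.0055 over all genes. Without both PMA libraries numbered 3, 18 members were higher (24.7%) and 2 lower at 12 h than at 6 h, beside 22% higher and 21.8% lower among all genes, and the median was 0.14. The comparisons share libraries: both comparisons with vehicle use the same 3 vehicle libraries, and 12 h against 6 h uses the PMA libraries of both.

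These changes were small beside those of many other genes. At 6 h 7 members were over 2-fold lower and 0 over 2-fold higher, against 2130 and 1861 genes in all, and at 12 h 4 were over 2-fold lower (Ndufs1, Ndufv2, Atp5c1 and Sdha) and 1 over 2-fold higher (Cox7a2l), against 2065 and 1820 genes. The libraries of the compared groups did not overlap for 51 members at 6 h, 52 at 12 h and 37 between 12 h and 6 h, beside 79.0%, 78.7% and 58.0% of all genes. The median SD between replicates was 0.15 log2 units for the members and 0.16 for all genes tested.

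The direction of small changes rests on the scaling. With upper-quartile factors in place of TMM the median of all genes moved to -0.29 at 6 h and -0.29 at 12 h, and with no normalization to -0.57 and -0.60. Relative to all genes, the members' median at 6 h lay at -0.28 under TMM, upper-quartile factors and no normalization alike. At 12 h it lay at 0.033, 0.034 and 0.030. A change of scaling shifts every gene by nearly the same amount, so this difference could hardly move and cannot test the scaling. Under upper-quartile factors 2 members were called higher and 46 lower at 6 h, and 13 and 37 at 12 h, beside 3023 and 4837, and 2963 and 4827, of all genes. With no normalization 1 and 63 members were called at 6 h, and 4 and 47 at 12 h, beside 2277 and 5855, and 2120 and 6021, of all genes. All fold changes below use TMM. At 6 h only Cox7a2l among the members called higher kept that call under every setting tried, and at 12 h Cox4i1, Cox7a2l, Cox8a and Atp5e did, while 31 of 37 members called lower at 6 h and 18 of 24 at 12 h did.

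**Figure D1:**
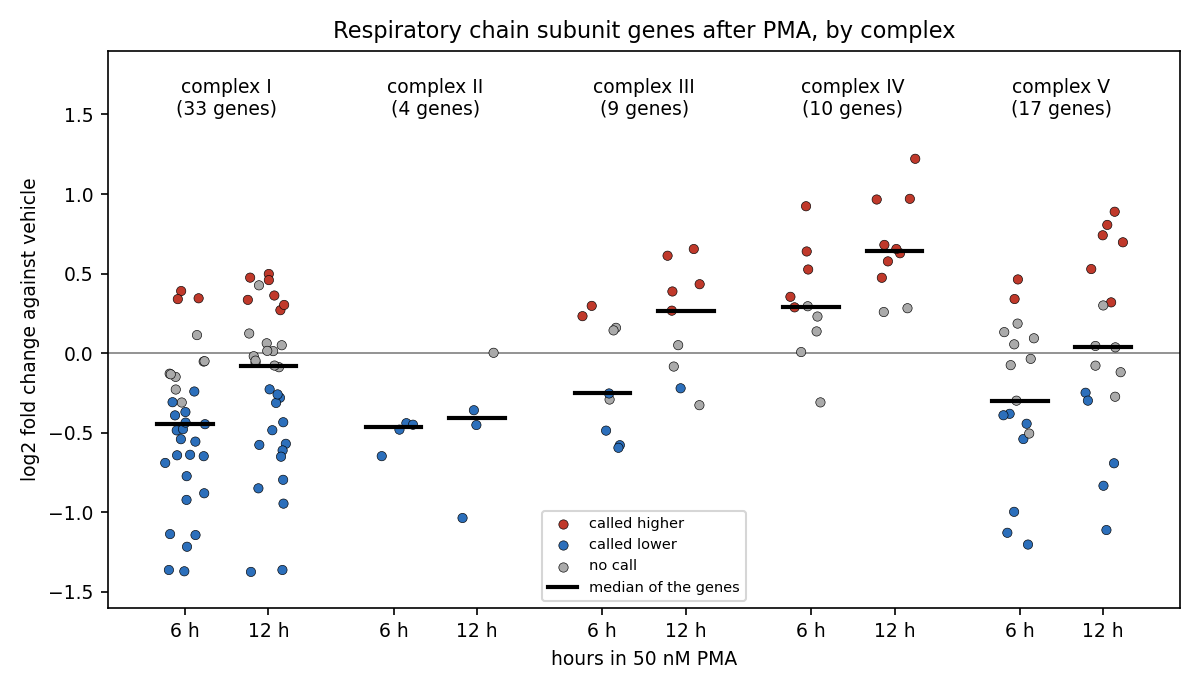
Log2 fold change against vehicle (y axis) of each tested subunit gene after 6 h and 12 h in 50 nM PMA (x axis), by complex, coloured by its call at an adjusted p under 0.05; bars are medians over the genes. The medians at 6 h ran from -0.46 in complex II to 0.29 in complex IV, and the complex IV median at 6 h was -0.25 with no normalization; at 12 h those of complexes III and V, 0.27 and 0.037 here, were at or below 0 under upper-quartile scaling and with no normalization.

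Promoters of the members were read because members of 1 enzyme moved together or apart. All 80 members matched a RefSeq gene, 63 by current symbol and 17 by synonym, and 63 of the tested members had a promoter sequence from 250 bases before to 50 bases after the start in the GRCr8 assembly. Motifs of 4 factors known to act on respiratory genes were searched on both strands, and no motif contains another. The NRF1 motif (GCGCATGC or GCATGCGC) stood in 8 of the 63 promoters (12.7%), against 2.66% of 27457 rat promoters. The ETS motif bound by GABP (CCGGAAG or CTTCCGG) stood in 18 (28.6%), against 9.22%. The YY1 motif (AAGATGG or CCATCTT) stood in 16 (25.4%), against 7.3%. The estrogen-related receptor motif (TCAAGGTCA or TGACCTTGA) stood in 2 (3.17%), against 0.412%. The base composition of the promoters was not matched.

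The ETS motif stood in 4 of 11 promoters of members called higher at 6 h (36.4%), in 7 of 32 called lower (21.9%) and in 7 of 20 with no call (35%). The NRF1 motif stood in 2 (18.2%), 3 (9.38%) and 3 (15%) of the same promoters. The YY1 motif stood in 2 (18.2%), 7 (21.9%) and 7 (35%), and the estrogen-related receptor motif in 0, 2 (6.25%) and 0. These shares are a description with no test. The lines below show 60 bases around a motif, in capitals, in 3 genes that fell at 6 h (Ndufs1, Sdhb and Uqcrc2) and 3 that rose (Uqcrh, Cox8a and Atp5g2), each 5′ to 3′ on the strand of the gene in GRCr8.
Ndufs1, ETS motif (chr9:72073772-72073831, minus strand): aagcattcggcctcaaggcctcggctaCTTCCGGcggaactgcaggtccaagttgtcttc
Sdhb, NRF1 motif (chr5:158547741-158547800, plus strand): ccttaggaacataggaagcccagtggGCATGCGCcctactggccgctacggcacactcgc
Uqcrc2, ETS motif (chr1:184599096-184599155, plus strand): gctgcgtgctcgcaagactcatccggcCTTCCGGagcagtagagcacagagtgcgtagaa
Uqcrh, ETS motif (chr5:134790933-134790992, minus strand): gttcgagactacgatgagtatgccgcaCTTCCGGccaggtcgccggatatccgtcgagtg
Cox8a, ETS motif (chr1:213833648-213833707, minus strand): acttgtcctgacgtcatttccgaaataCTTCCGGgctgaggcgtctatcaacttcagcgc
Atp5g2 (Atp5mc2 in RefSeq), NRF1 motif (chr7:135678241-135678300, minus strand): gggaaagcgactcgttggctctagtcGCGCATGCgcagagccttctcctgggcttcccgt

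Complex I, the NADH dehydrogenase, was mostly lower at 6 h. At that time 22 of its 33 tested genes (66.7%) were lower and 3 (9.09%) higher than in vehicle, and at 12 h 15 (45.5%) were lower and 7 (21.2%) higher, by edgeR's quasi-likelihood test. Of all genes, 39.0% were lower and 37.8% higher at 6 h, and 38.2% and 37.7% at 12 h. Without PMA 12 h replicate 3, 4 were higher at 12 h, and the median change at 12 h, -0.078, was 0.013 without PMA 12 h replicate 2. Summed over its genes the level was 1801 ± 43.4 CPM in vehicle, 1292 ± 42.1 CPM at 6 h and 1521 ± 144 CPM at 12 h (SD, n = 3 each). The 6 h libraries, at 1243 to 1318 CPM, all lay below the vehicle libraries, at 1752 to 1834 CPM, and the 12 h libraries ran from 1387 to 1673 CPM.

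The core of complex I in the matrix arm, where NADH is oxidised and electrons run along iron-sulfur clusters, is built by a small set of subunits. At 6 h Ndufs1, Ndufs3, Ndufv1 and Ndufv2 fell, and Ndufs7 and Ndufs8 had no call. Ndufs1, an iron-sulfur subunit of that arm, had 183, 158 and 163 CPM in the vehicle libraries, 65.7, 65.4 and 64.1 CPM at 6 h and 68.2, 66.02 and 60.2 CPM at 12 h. Ndufv2, an iron-sulfur subunit beside the flavin site, had 51.4, 51.8 and 53.3 CPM in vehicle, 19.9, 20.1 and 20.9 CPM at 6 h and 20.8, 19.2 and 20.9 CPM at 12 h. Both genes were lower in all 6 PMA libraries than in any vehicle library, and their PMA libraries overlapped between 6 h and 12 h. Ndufs1 changed by -1.37 ± 0.082 (log2, SE) at 6 h, a 2.59-fold lower level (adjusted p = 6.8e-11), and by -1.37 ± 0.082 at 12 h (adjusted p = 7.7e-11). Ndufv2 changed by -1.36 ± 0.099 at 6 h (adjusted p = 9.6e-10) and by -1.36 ± 0.099 at 12 h (adjusted p = 1.2e-09).

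Ndufs3, a core subunit of the arm towards the membrane, had 41.8, 39.96 and 36.2 CPM in vehicle, 20.8, 20.7 and 22.5 CPM at 6 h and 20.7, 20.5 and 20.1 CPM at 12 h. Its PMA libraries were all lower than vehicle, by 0.88 ± 0.11 log2 units at 6 h (adjusted p = 7.21e-07) and 0.95 ± 0.11 at 12 h (adjusted p = 3.53e-07). Ndufv1, which binds NADH and the flavin, had 82.5, 81.3 and 76.5 CPM in vehicle, 64.1, 60.01 and 53.7 CPM at 6 h and 66.7, 56.2 and 78.2 CPM at 12 h. At 6 h its libraries lay below vehicle, and at 12 h replicate 3 overlapped the vehicle libraries. Ndufv1 changed by -0.44 ± 0.11 at 6 h (adjusted p = 0.00128) and by -0.26 ± 0.11 at 12 h (adjusted p = 0.0356). Its call at 12 h was lost without vehicle replicate 1 (adjusted p = 0.0772), vehicle replicate 2 (0.0837), PMA 12 h replicate 1 (0.0846) or PMA 12 h replicate 2 (0.213). Ndufs7, a core subunit with the cluster next to coenzyme Q, had log2 fold changes of -0.13 at 6 h (adjusted p = 0.316) and 0.33 at 12 h (adjusted p = 0.0162), and the 12 h call was lost without PMA 12 h replicate 3 (adjusted p = 0.109) and the 12 h value was -0.25 with no normalization.

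The accessory subunits surround the core and are needed for assembly and stability. At 6 h 17 of the 26 tested fell (65.4%) and 3 rose (11.5%), beside 39.0% and 37.8% of all genes. At 12 h 10 were lower (38.5%) and 6 higher (23.1%) than in vehicle, beside 38.2% and 37.7%. Ndufa8, an accessory subunit on the side of the intermembrane space, had 50.9, 50.1 and 45.2 CPM in vehicle, 19.3, 21.1 and 22.5 CPM at 6 h and 29.5, 27.2 and 27.6 CPM at 12 h. Ndufab1, the mitochondrial acyl carrier protein, had 70.6, 67.3 and 68.2 CPM in vehicle, 29.3, 32.1 and 31.9 CPM at 6 h and 39.4, 33.3 and 41.8 CPM at 12 h. Ndufa12, an accessory subunit of the matrix arm, had 24.5, 29.4 and 33.4 CPM in vehicle, 15.1, 14.2 and 10.4 CPM at 6 h and 19.9, 18.3 and 20.5 CPM at 12 h. For all 3 genes the groups did not overlap: the 6 h libraries were lowest, the 12 h libraries stood between, and the vehicle libraries were highest. Ndufa8 changed by -1.22 ± 0.10 at 6 h and -0.80 ± 0.10 at 12 h (adjusted p = 9.22e-09 and 1.85e-06). Ndufab1 changed by -1.14 ± 0.099 and -0.85 ± 0.098 (adjusted p = 1.02e-08 and 4.61e-07). Ndufa12 changed by -1.14 ± 0.15 and -0.57 ± 0.15 (adjusted p = 2.77e-06 and 0.00233). Ndufa8 overlaps another gene: its strand columns together held 1.31 times the reads of its unstranded column, in which a read that lies on more than 1 gene is not counted. The summed columns gave log2 fold changes of -1.28 and -0.71. Which of the overlapping genes the added reads came from was not tested.

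The complex I genes called higher at 6 h were Ndufa6, Ndufa7 and Ndufb11. Ndufa7, an accessory subunit of the matrix arm, had 58.1, 67.3 and 57.5 CPM in vehicle, 89.5, 81.9 and 68.7 CPM at 6 h and 79.5, 71.5 and 84.3 CPM at 12 h. Ndufb11, an accessory subunit of the membrane arm, had 45.8, 48.4 and 47.5 CPM in vehicle, 58.2, 59.9 and 61.2 CPM at 6 h and 65.6, 67.1 and 67.5 CPM at 12 h. All PMA libraries of both genes lay above the vehicle libraries, by smaller factors than the falls of Ndufs1 and Ndufv2. Ndufa7 changed by 0.39 ± 0.10 at 6 h (adjusted p = 0.00241) and 0.36 ± 0.10 at 12 h (adjusted p = 0.00442), and Ndufb11 by 0.34 ± 0.080 (adjusted p = 0.00096) and 0.50 ± 0.080 (adjusted p = 2.39e-05). With no normalization these 4 values turned negative, at -0.15 and -0.22 for Ndufa7 and -0.20 and -0.083 for Ndufb11. Ndufa6, named after its values were seen, had log2 fold changes of 0.34 and 0.47 (adjusted p = 0.00494 and 0.000391), which turned to -0.19 and -0.11 with no normalization.

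A pair of accessory subunits was called lower at 6 h and higher at 12 h, as were 1.67% of all genes tested. Ndufs4, a matrix arm subunit needed to complete the NADH-oxidising end, had 61.3, 57.3 and 53.5 CPM in vehicle, 46.7, 52.4 and 46.7 CPM at 6 h and 71.1, 62.8 and 78.7 CPM at 12 h. Ndufb7, a membrane arm subunit, had 54.8, 59.1 and 52.8 CPM in vehicle, 46.8, 46.9 and 41.2 CPM at 6 h and 61.1, 58.4 and 81.9 CPM at 12 h. For both genes the 6 h libraries were below all others, and the 12 h libraries of Ndufb7 overlapped vehicle. Ndufs4 changed by -0.24 ± 0.098 at 6 h (adjusted p = 0.0341) and by 0.30 ± 0.098 at 12 h (adjusted p = 0.0096). Ndufb7 changed by -0.31 ± 0.12 (adjusted p = 0.0226) and 0.27 ± 0.11 (adjusted p = 0.0413). The 12 h values turned to -0.28 and -0.31 with no normalization. The call of Ndufs4 at 6 h was lost without vehicle replicate 1 (adjusted p = 0.109), vehicle replicate 2 (0.0668), PMA 6 h replicate 1 (0.108) or its replicate 3 (0.0744), and at 12 h without PMA 12 h replicate 3 (0.0585). That of Ndufb7 was lost at 6 h without vehicle replicate 2 (0.0846) or the 6 h library numbered 3 (0.0745), and at 12 h without vehicle replicate 1 (0.0859), vehicle replicate 3 (0.113) or PMA 12 h replicate 3 (0.35).

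Ndufa4 is counted here with complex I by its prefix, although later work in human cells placed its protein in complex IV. It was lower at 6 h, at 63.3 ± 7.18 CPM against 98.8 ± 4.12 CPM in vehicle, by 0.64 log2 units (adjusted p = 1.11e-05). At 12 h it averaged 84.5 ± 9.53 CPM, 0.23 log2 units lower than vehicle (adjusted p = 0.0407), a call lost without vehicle replicate 1 (adjusted p = 0.0648) or 3 (0.109), PMA 6 h replicate 2 (0.0514), and likewise without the 12 h library numbered 1 (0.12) or 2 (0.18). Ndufa4 was named after its values were seen.

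**Figure D2:**
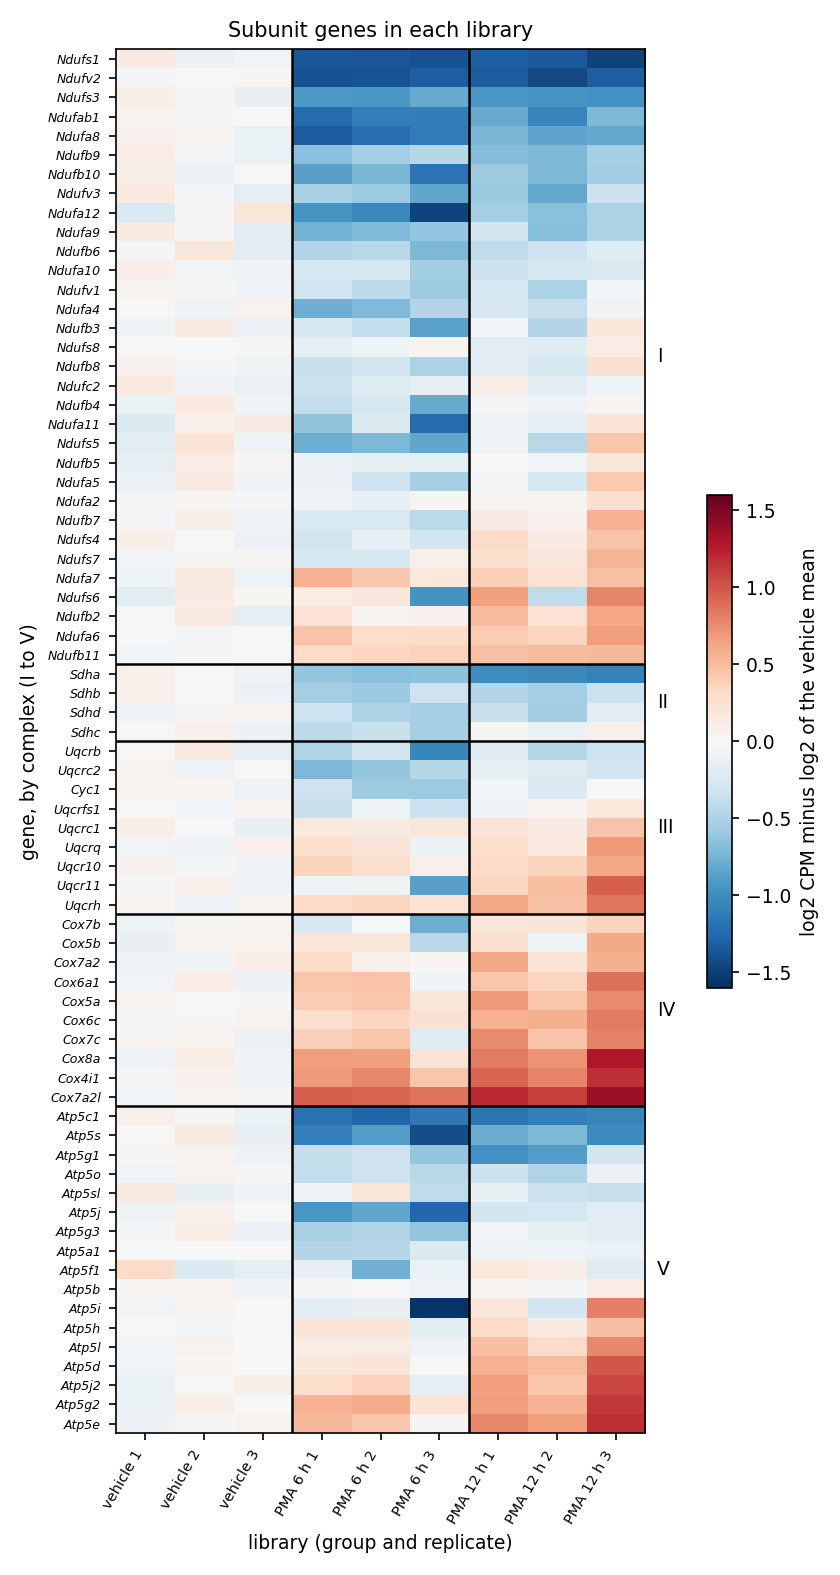
Level of the tested subunit genes reported here (rows, by complex) in each library (columns), as log2 CPM minus the log2 of its vehicle mean, on a colour scale from blue (lower) through white to red (higher). The rows of Ndufs1, Ndufv2, Sdha and Atp5c1 are blue in all 6 PMA libraries and those of Cox7a2l and Cox4i1 red; with no normalization Cox7a2l stays higher at both times, and replicate 3 stands apart at 6 h and at 12 h in many rows.

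Complex II, succinate dehydrogenase, is also an enzyme of the TCA cycle. All 4 of its genes fell at 6 h, and 3 were lower than vehicle at 12 h, beside 39.0% and 38.2% of all genes. The summed level was 321 ± 11.0 CPM in vehicle, 225 ± 4.29 CPM at 6 h and 239 ± 14.6 CPM at 12 h (SD, n = 3 each), with all PMA libraries below vehicle. Sdha, the flavoprotein that oxidises succinate, had 111, 105 and 101 CPM in vehicle, 68.9, 66.2 and 67.2 CPM at 6 h and 53.1, 51.5 and 49.9 CPM at 12 h. Its 3 groups did not overlap, and the level was lower at each later time. Sdha changed by -0.65 ± 0.077 at 6 h (adjusted p = 6.47e-07) and by -1.04 ± 0.079 at 12 h (adjusted p = 1.98e-09), and it was the 1 member lower at 12 h than at 6 h, by 0.39 ± 0.079 (adjusted p = 0.000571). Under all settings tried that last value stayed between -0.43 and -0.36.

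The iron-sulfur subunit Sdhb had 55.9, 52.8 and 49.2 CPM in vehicle, 36.4, 34.8 and 41.9 CPM at 6 h and 37.97, 36.1 and 41.5 CPM at 12 h. It was lower in every PMA library than in vehicle, by 0.48 ± 0.10 at 6 h (adjusted p = 0.000339) and 0.45 ± 0.10 at 12 h (adjusted p = 0.000639). Of the membrane anchors, Sdhd was lower by 0.45 at 6 h and 0.36 at 12 h (adjusted p = 0.000566 and 0.00371). Sdhc, the other anchor, had 98.02, 103 and 91.1 CPM in vehicle, 72.6, 75.8 and 67.2 CPM at 6 h and 98.9, 91.01 and 103 CPM at 12 h. With TMM scaling it was called lower at 6 h, with a log2 fold change of -0.44 ± 0.083 (adjusted p = 0.000117), against 0.0022 ± 0.082 at 12 h (adjusted p = 0.981), and 12 h was higher than 6 h by 0.44 ± 0.084 (adjusted p = 0.000287). At 12 h it was called lower under upper-quartile scaling (-0.27, adjusted p = 0.00774) and with no normalization (-0.58, adjusted p = 3.1e-06).

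Complex III, the cytochrome bc1 complex, held genes of both directions. At 6 h 4 of its 9 genes fell (Uqcrc2, Cyc1, Uqcrb and Uqcrfs1) and 2 rose (Uqcrh and Uqcr10), and at 12 h 5 were higher (Uqcrh, Uqcr11, Uqcr10, Uqcrq and Uqcrc1) and 1 lower (Uqcrc2). That is 44.4% lower and 22.2% higher at 6 h, beside 39.0% and 37.8% of all genes. At 12 h it is 11.1% lower and 55.6% higher, beside 38.2% and 37.7%. The summed level was 981 ± 25.4 CPM in vehicle, 903 ± 42.0 CPM at 6 h and 1116 ± 110 CPM at 12 h (SD, n = 3 each), and every 6 h library was below and every 12 h library above the vehicle libraries. The median change at 12 h was 0.27, and it was -0.0037 under upper-quartile scaling and -0.32 with no normalization. Without PMA 12 h replicate 3, 2 were higher at 12 h and 0 lower. Uqcr10, a small subunit, had changes of 0.23 (adjusted p = 0.0322) and 0.43 (adjusted p = 0.000465), which were -0.026 at 6 h under upper-quartile scaling and -0.31 and -0.15 with no normalization. Its 6 h call was lost without vehicle replicate 2 (adjusted p = 0.0893) or 3 (0.0903), and likewise without the 6 h library numbered 1 (0.157) or 2 (0.0764). Uqcrb, which lies next to the coenzyme Q site, changed by -0.58 (adjusted p = 0.00306) and -0.33 (adjusted p = 0.0672). At 12 h it was called lower without vehicle replicate 3 (-0.40, adjusted p = 0.0416) or PMA 6 h replicate 3 (-0.34, adjusted p = 0.0146). The same call came under upper-quartile scaling (-0.60, adjusted p = 0.00228) and with no normalization (-0.91, adjusted p = 2.21e-05). It also came with only the compared groups (-0.35, adjusted p = 0.0151) and without both PMA libraries numbered 3 (-0.33, adjusted p = 0.0345). Uqcr10, Uqcrb, Uqcrc1 and Uqcrq are named after their values were seen.

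Of the subunits that carry electrons, Cyc1 (cytochrome c1) had 150.4, 148 and 137 CPM in vehicle, 116, 98.3 and 97.6 CPM at 6 h and 141, 125 and 145 CPM at 12 h. Uqcrfs1, the Rieske iron-sulfur protein, had 103, 98.3 and 104 CPM in vehicle, 79.6, 96.4 and 80.2 CPM at 6 h and 97.6, 104 and 115 CPM at 12 h. Both were lower at 6 h than in vehicle, and at 12 h their libraries overlapped vehicle. Cyc1 changed by -0.49 ± 0.085 at 6 h (adjusted p = 5.31e-05) and -0.084 ± 0.084 at 12 h (adjusted p = 0.374), and Uqcrfs1 by -0.25 ± 0.089 (adjusted p = 0.0157) and 0.050 ± 0.089 (adjusted p = 0.619). The 6 h call of Uqcrfs1 was lost without PMA 6 h replicate 1 (adjusted p = 0.0819). At 12 h Cyc1 and Uqcrfs1 were called lower under upper-quartile scaling (-0.35 and -0.22, adjusted p = 0.00116 and 0.0319). With no normalization they were also called lower, at -0.67 and -0.53 (adjusted p = 8.06e-07 and 1.95e-05).

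Uqcrc2, a core protein on the matrix side, had 198, 183 and 189 CPM in vehicle, 115, 123 and 139 CPM at 6 h and 170.0, 165 and 153 CPM at 12 h. It was lower in all PMA libraries, by 0.59 ± 0.079 at 6 h (adjusted p = 2.45e-06) and 0.22 ± 0.079 at 12 h (adjusted p = 0.0173), and the 12 h call was lost without vehicle replicate 1 (adjusted p = 0.0552) or PMA 12 h replicate 3 (0.0712). The other core protein, Uqcrc1, had log2 fold changes of 0.16 (adjusted p = 0.0967) and 0.27 (adjusted p = 0.00883), the second lost without PMA 12 h replicate 3 (adjusted p = 0.0627), as was the 12 h call of Uqcrq (0.0616). With no normalization the 12 h values were -0.32 for Uqcrc1 and -0.20 for Uqcrq, and that of Uqcrc1 was -0.0037 under upper-quartile scaling. Uqcrh, the hinge protein where cytochrome c docks, had 72.6, 67.4 and 73.6 CPM in vehicle, 88.9, 90.1 and 83.6 CPM at 6 h and 109, 98.7 and 129 CPM at 12 h. Its groups did not overlap and its level was higher at each later time, with changes of 0.30 ± 0.092 at 6 h (adjusted p = 0.00739) and 0.65 ± 0.092 at 12 h (adjusted p = 5.04e-06). With no normalization its 6 h value was -0.24.

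Complex IV, cytochrome c oxidase, passes electrons from cytochrome c to oxygen. With TMM scaling, at 6 h 5 of its 10 tested genes rose (Cox4i1, Cox5a, Cox6c, Cox7a2l and Cox8a), 50% beside 37.8% of all genes. At 12 h, with the same scaling, 8 were higher than vehicle (80%, beside 37.7%). By edgeR with that scaling 0 were called lower at either time, and the median log2 changes were 0.29 and 0.64. Under upper-quartile scaling those medians were 0.034 and 0.37, and with no normalization -0.25 and 0.059, with 1 gene called higher and 5 lower at 6 h and 3 higher and 1 lower at 12 h. Without PMA 6 h replicate 2, Cox7b was called lower at 6 h (-0.49, adjusted p = 0.00792). It was also called lower at 6 h by limma-voom with TMM scaling (-0.36, adjusted p = 0.0334) and by edgeR under upper-quartile scaling (-0.57, adjusted p = 0.00231). The summed level was 1136 ± 40.1 CPM in vehicle, 1548 ± 193 CPM at 6 h and 1949 ± 284 CPM at 12 h (SD, n = 3 each). Every PMA library was above every vehicle library, and the lowest 6 h value, 1326 CPM, and the highest 12 h value, 2257 CPM, were both of replicates numbered 3.

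Cox7a2l, a protein that joins complexes III and IV in supercomplexes, had 121, 127 and 126 CPM in vehicle, 242, 239 and 229 CPM at 6 h and 284, 265 and 323 CPM at 12 h. Cox4i1, a subunit that assembles early with the catalytic core, had 266, 282 and 257 CPM in vehicle, 431, 458 and 365 CPM at 6 h and 511, 460.0 and 606 CPM at 12 h. Their 3 groups did not overlap, and the order was vehicle, 6 h, 12 h from low to high. Cox7a2l rose by 0.92 ± 0.078 at 6 h, a 1.90-fold level (adjusted p = 7.05e-09), and by 1.22 ± 0.078 at 12 h, a 2.33-fold level (adjusted p = 1.96e-10). Cox4i1 rose by 0.64 ± 0.10 at 6 h (adjusted p = 2.02e-05) and 0.97 ± 0.10 at 12 h (adjusted p = 1.66e-07). Cox7a2l kept its sign and call under every setting tried.

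Cox5a, the partner of Cox4i1 in early assembly, had 107, 103 and 101 CPM in vehicle, 138, 142 and 119 CPM at 6 h and 166, 141 and 175 CPM at 12 h. The small membrane subunit Cox8a had 76.7, 86.6 and 75.7 CPM in vehicle, 127, 126 and 91.98 CPM at 6 h and 142, 131 and 194 CPM at 12 h. Both genes were above vehicle in all PMA libraries, and the 6 h and 12 h libraries of Cox5a overlapped. Cox5a changed by 0.35 ± 0.088 (adjusted p = 0.00148) and 0.63 ± 0.088 (adjusted p = 4.94e-06), and Cox8a by 0.53 ± 0.16 (adjusted p = 0.0128) and 0.97 ± 0.16 (adjusted p = 0.000297). With no normalization the 6 h values were -0.19 for Cox5a and -0.014 for Cox8a.

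**Figure D3:**
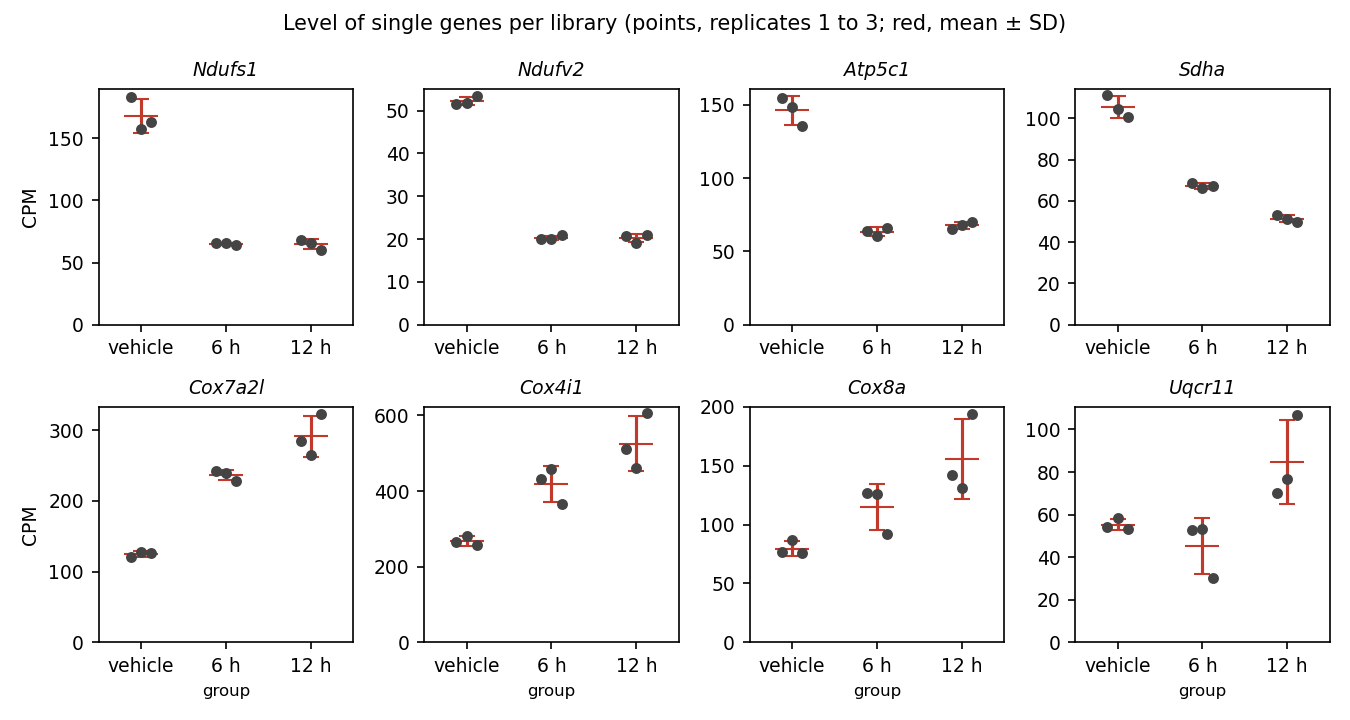
CPM of 8 subunit genes (y axis, from 0, a separate scale in each panel) in vehicle, at 6 h and at 12 h of 50 nM PMA (x axis); points are libraries, red marks the mean ± SD of 3. Ndufs1, Ndufv2, Atp5c1 and Sdha were lower in all PMA libraries, Cox7a2l, Cox4i1 and Cox8a were higher, although with no normalization Cox8a was at -0.014 at 6 h, and Uqcr11 was spread at 6 h and 12 h.

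Several complex IV subunits exist as a widely used form and a form restricted to muscle, lung or testis. Of the forms counted here, only widely used ones had enough reads to be tested over all libraries. Cox4i2 had 3 reads over the vehicle libraries, 6 at 6 h and 1 at 12 h, while its partner Cox4i1 averaged 268 CPM or more in each group. Cox6a2, the heart and muscle form, had 14 reads in vehicle, 43 at 6 h and 8 at 12 h, too few to be tested over all libraries. With no filter it was called higher at 6 h (log2 fold change 2.11). Some fits with 1 library left out called it higher at 6 h (2.12 to 2.40) or lower at 12 h than at 6 h (-3.10 to -2.20). Its partner Cox6a1 had 208, 233 and 202 CPM in vehicle, 291, 295 and 205 CPM at 6 h and 293, 272 and 396 CPM at 12 h. Its 6 h replicate 3 lay among the vehicle libraries, and the change was 0.29 ± 0.17 at 6 h (adjusted p = 0.149, or 0.0144 without that library) and 0.58 ± 0.17 at 12 h (adjusted p = 0.0135; -0.0073 with no normalization).

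Cox6b2 had 1 read in all, Cox8b 1 read, and Cox8c and the pseudogene Cox6c-ps1 0 reads. Cox6b1, the widely used partner of Cox6b2, and Cox7a1, the heart form of subunit 7a, were not among the genes counted. Cox7a2, the widely used partner of the heart form of subunit 7a, had 29.6, 29.4 and 33.03 CPM in vehicle, 37.6, 32.3 and 31.3 CPM at 6 h and 47.02, 35.3 and 45.4 CPM at 12 h. The 6 h libraries overlapped vehicle and the 12 h libraries did not, with changes of 0.14 ± 0.12 (adjusted p = 0.308) and 0.47 ± 0.12 (adjusted p = 0.00173). With no normalization these were -0.40 and -0.11. Cox7a2 and Cox7b lie on genes that overlap others: their strand columns together held 2.004 and 3.83 times the reads of the unstranded column. With those columns summed, Cox7a2 was higher at 6 h by 0.26 (adjusted p = 0.0123) and Cox7b was higher at 12 h by 0.24 (adjusted p = 0.0171). Neither had that call in the unstranded column. Reads fell evenly on both strand columns, so the added reads may be of the overlapping genes, which was not tested.

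Complex V, the ATP synthase, held calls in both directions. At 6 h 7 of its 17 genes fell (41.2%) and 2 rose (Atp5e and Atp5g2, 11.8%), beside 39.0% lower and 37.8% higher among all genes. At 12 h 5 were lower (Atp5c1, Atp5g1, Atp5j, Atp5o and Atp5s, 29.4%) and 6 higher (35.3%), near the 38.2% lower and 37.7% higher among all genes. At 6 h 0 were higher without PMA 6 h replicate 1 or without PMA 6 h replicate 2, and 5 were higher without both PMA libraries numbered 3. The summed level was 2617 ± 55.6 CPM in vehicle, 2369 ± 110 CPM at 6 h and 2844 ± 262 CPM at 12 h (SD, n = 3 each), and the 12 h libraries overlapped vehicle. The median change of 0.037 at 12 h was -0.24 under upper-quartile scaling and -0.54 with no normalization, and it was below 0, at -0.066 to -0.027, when any 1 library among vehicle 2, vehicle 3, PMA 12 h 1 and PMA 12 h 3 was left out.

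The rotary head of the enzyme holds the catalytic subunits. Atp5b, the beta subunit with the catalytic sites, had 899.8, 916 and 858 CPM in vehicle, 879, 888 and 842 CPM at 6 h and 914, 880.0 and 965 CPM at 12 h. Atp5a1, the alpha subunit, had 489, 488 and 492 CPM in vehicle, 354, 357 and 417 CPM at 6 h and 469, 467 and 455 CPM at 12 h. Atp5b overlapped between all groups, and Atp5a1 was lower than vehicle in every 6 h library and, by less, in every 12 h library. Atp5b had log2 fold changes of -0.036 ± 0.070 (adjusted p = 0.651) and 0.045 ± 0.070 (adjusted p = 0.572), and the 12 h value was -0.22 under upper-quartile scaling and -0.54 with no normalization. Atp5a1 changed by -0.38 ± 0.075 at 6 h (adjusted p = 0.000174) and by -0.079 ± 0.074 at 12 h (adjusted p = 0.347). At 12 h it was called lower under upper-quartile scaling (-0.35, adjusted p = 0.00043) and with no normalization (-0.66, adjusted p = 4.79e-07). Atp5b was also called lower at 12 h under both settings.

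The rotor inside the head held genes of both directions. Atp5c1, the gamma subunit that turns within the head, had 155, 148 and 136 CPM in vehicle, 64.1, 60.3 and 66.3 CPM at 6 h and 65.1, 68.3 and 69.97 CPM at 12 h. Atp5e, the epsilon subunit at its foot, had 48.4, 52.9 and 53.6 CPM in vehicle, 74.02, 69.7 and 52.6 CPM at 6 h and 87.6, 82.4 and 117 CPM at 12 h. All PMA libraries of Atp5c1 were below vehicle, while those of Atp5e were above it except PMA 6 h replicate 3. Atp5c1 changed by -1.20 ± 0.080 at 6 h, 2.30-fold lower (adjusted p = 2.81e-10), and by -1.11 ± 0.080 at 12 h (adjusted p = 9.36e-10). Atp5e changed by 0.34 ± 0.14 at 6 h (adjusted p = 0.0424) and 0.89 ± 0.14 at 12 h (adjusted p = 6.47e-05). Its 6 h value was -0.20 with no normalization, and its 6 h call was lost without vehicle replicate 1 (adjusted p = 0.116), 2 (0.0769) or 3 (0.0522), and likewise without the 6 h library numbered 1 (0.166) or 2 (0.13). Atp5d, the delta subunit of the rotor, had log2 fold changes of 0.13 (adjusted p = 0.272) and 0.70 (adjusted p = 2.52e-05).

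The ring of c subunits in the membrane is encoded by 3 genes whose mature proteins are identical, Atp5g1, Atp5g2 and Atp5g3. Atp5g2 had 114, 132 and 122 CPM in vehicle, 180.0, 186 and 142 CPM at 6 h and 195, 180.0 and 269.7 CPM at 12 h. Atp5g1 had 82.6, 83.02 and 76.5 CPM in vehicle, 61.8, 64.05 and 52.3 CPM at 6 h and 41.3, 43.6 and 65.5 CPM at 12 h. Atp5g3 had 139.8, 152 and 132 CPM in vehicle, 98.7, 101 and 91.4 CPM at 6 h and 136, 127 and 126 CPM at 12 h. Atp5g2 was higher than vehicle in all PMA libraries, Atp5g1 was lower in all, and Atp5g3 was lower in the 6 h libraries. Atp5g2 changed by 0.46 ± 0.15 (adjusted p = 0.0173) and 0.81 ± 0.15 (adjusted p = 0.000655), Atp5g1 by -0.44 ± 0.14 (adjusted p = 0.0128) and -0.69 ± 0.15 (adjusted p = 0.000724), and Atp5g3 by -0.54 ± 0.077 (adjusted p = 5.94e-06) and -0.12 ± 0.077 (adjusted p = 0.167). The 6 h value of Atp5g2 was -0.076 with no normalization. Its 6 h call was lost without PMA 6 h replicate 1 (adjusted p = 0.054) or 2 (0.0617), and that of Atp5g1 without PMA 6 h replicate 3 (0.0538). At 12 h Atp5g3 was called lower under upper-quartile scaling (-0.39, adjusted p = 0.000206) and with no normalization (-0.70, adjusted p = 1.68e-07).

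In the stalk that holds the head still, Atp5j (coupling factor F6) had 63.2, 69.9 and 67.1 CPM in vehicle, 35.1, 37.5 and 27.98 CPM at 6 h and 54.6, 54.8 and 59.2 CPM at 12 h. Atp5j2, subunit f in the membrane, had 89.1, 96.00 and 102 CPM in vehicle, 116, 124 and 87.01 CPM at 6 h and 151, 130.0 and 200.1 CPM at 12 h. Atp5j was lowest at 6 h with no overlap between groups, and Atp5j2 was above vehicle at 12 h. Atp5j changed by -0.997 ± 0.11 at 6 h (adjusted p = 1.39e-07) and -0.25 ± 0.10 at 12 h (adjusted p = 0.0367), and Atp5j2 by 0.19 ± 0.17 (adjusted p = 0.341) and 0.74 ± 0.17 (adjusted p = 0.00283). With no normalization the 6 h value of Atp5j2 was -0.35. The 12 h call of Atp5j was lost without vehicle replicate 2 (adjusted p = 0.121), vehicle replicate 3 (0.0674), PMA 12 h replicate 1 (0.106) or PMA 12 h replicate 2 (0.09). The prefix also took Atp5s and Atp5sl, which are not counted as subunits of the enzyme. Atp5s was lower by 1.13 ± 0.23 at 6 h and 0.83 ± 0.22 at 12 h (adjusted p = 0.000214 and 0.00276) on 143 reads at 6 h, and Atp5sl had no call.

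**Figure D4:**
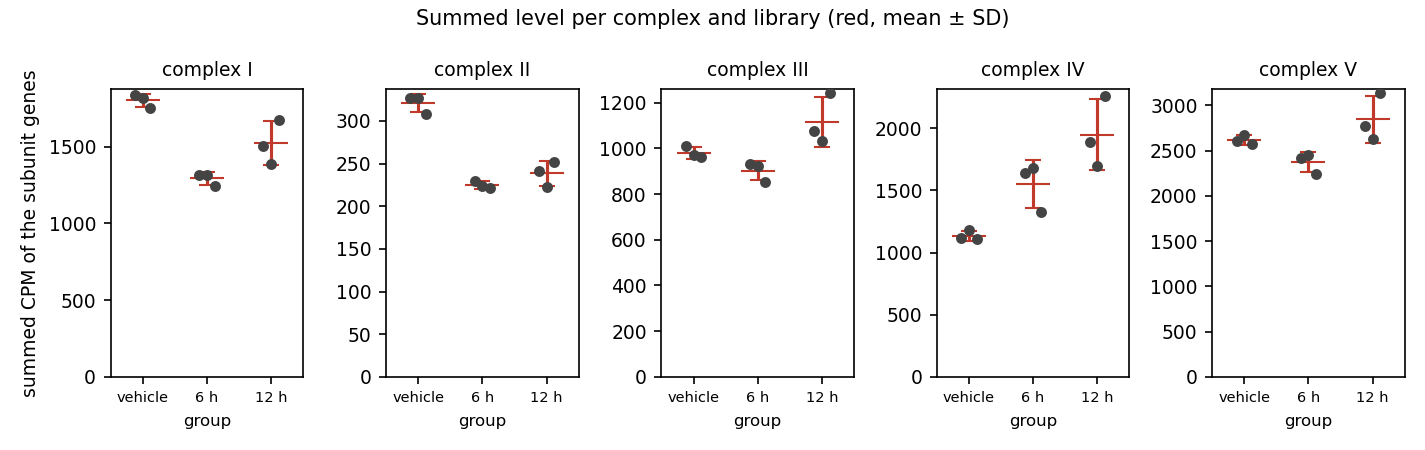
CPM summed over the subunit genes of each complex (y axis, from 0, a separate scale in each panel) in vehicle, at 6 h and at 12 h of 50 nM PMA (x axis); points are libraries, red marks the mean ± SD of 3. Complex I had 1801, 1292 and 1521 CPM in the 3 groups and complex IV 1136, 1548 and 1949 CPM; the complex IV median change at 6 h was -0.25 with no normalization.

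With all libraries, the called changes between 6 h and 12 h were upward in every complex apart from complex II. At 12 h 13 of 33 complex I genes were higher than at 6 h, 5 of 9 in complex III, 8 of 10 in complex IV and 7 of 17 in complex V, with none lower in these 4, against 1 higher (Sdhc) and 1 lower (Sdha) in complex II. The shares higher in complexes I, III, IV and V were 39.4%, 55.6%, 80% and 41.2%, beside 25.3% of all genes. Without PMA 12 h replicate 3, 8 were higher in complex I and 3 in complex IV, and Atp5g1 was called lower (-0.48, adjusted p = 0.00149). Cox6a2 of complex IV, on few reads, was also called lower there (-3.10, adjusted p = 0.0232). In that fit 22.6% of all genes were higher and 22.7% lower. Without PMA 6 h replicate 3 or without PMA 12 h replicate 1, 5 were higher in complex IV, beside 23.3% and 22.7% of all genes. Without both PMA libraries numbered 3, 6 of 33 were higher in complex I, 3 of 9 in complex III, 2 of 10 in complex IV and 6 of 17 in complex V, with Atp5g1 lower. In that fit 22% of all genes were higher and 21.8% lower. The calls of Cox4i1, Cox5a and Cox8a at 12 h against 6 h were among those lost there, at 0.13, 0.14 and 0.12 (adjusted p = 0.184, 0.194 and 0.293), against 0.33, 0.27 and 0.44 with all libraries. The upward direction of the medians held under upper-quartile scaling and with no normalization, at 0.29 and 0.26 over all members.

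The called members with the largest rises in that comparison were Uqcr11, Ndufs5, Atp5j and Ndufa11. Uqcr11, a small subunit of complex III, had 54.3, 58.2 and 53.2 CPM in vehicle, 52.6, 53.03 and 30.2 CPM at 6 h and 70.02, 76.8 and 107 CPM at 12 h. Ndufs5, an accessory subunit on the side of the intermembrane space, had 17.4, 22.99 and 18.9 CPM in vehicle, 11.6, 12.05 and 11.2 CPM at 6 h and 18.7, 14.6 and 26.9 CPM at 12 h. Ndufa11, an accessory subunit of the membrane arm, had 36.2, 44.8 and 46.4 CPM in vehicle, 27.3, 36.3 and 18.2 CPM at 6 h and 40.96, 38.3 and 49.3 CPM at 12 h. In all 3 the 12 h libraries were above the 6 h libraries without overlap, and replicate 3 was low at 6 h for Uqcr11 and Ndufa11 and high at 12 h for all 3. At 12 h against 6 h Uqcr11 was higher by 0.90 ± 0.23 (adjusted p = 0.0105), Ndufs5 by 0.79 ± 0.19 (adjusted p = 0.00235), Atp5j by 0.75 ± 0.11 (adjusted p = 1.79e-05) and Ndufa11 by 0.66 ± 0.22 (adjusted p = 0.028). The call of Ndufa11 was lost without PMA 6 h replicate 1 (adjusted p = 0.0746), PMA 12 h replicate 1 (0.0543) or PMA 12 h replicate 3 (0.0965).

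Against vehicle, Ndufs5 changed by -0.77 ± 0.19 at 6 h (adjusted p = 0.00121) and 0.014 ± 0.18 at 12 h (adjusted p = 0.946), and Ndufa11 by -0.65 ± 0.22 (adjusted p = 0.0185) and 0.013 ± 0.21 (adjusted p = 0.959). With no normalization both 12 h values were -0.57. The 6 h call of Ndufa11 was lost without PMA 6 h replicate 1 (adjusted p = 0.0537). Uqcr11 had -0.29 ± 0.23 at 6 h (adjusted p = 0.273) and 0.61 ± 0.23 at 12 h (adjusted p = 0.0349), and the 12 h call was lost without vehicle replicate 1 (0.0752), 2 (0.0613) or 3 (0.077), and likewise without the 12 h library numbered 2 (0.059) or 3 (0.0998). The widest spread between replicates was that of Atp5i (subunit e of complex V), with a residual SD of 0.57 log2 units, and of Ndufs6, with 0.52; PMA 6 h replicate 3 was the lowest library of both, and neither had a call.

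Other genes that build, feed or regulate the chain were described from further lists. These lists and their genes were chosen with the results known. Their counts stand beside 39.0% of all genes called lower and 37.8% higher at 6 h, and 38.2% and 37.7% at 12 h. Of 13 complex I assembly factors 13 were lower at 6 h and 12 at 12 h, and 0 were higher. The medians were -0.93 and -1.16, against -0.45 and -0.078 for the complex I subunits. Atp5sl, which RefSeq names Dmac2, a factor of that list, is counted here with complex V instead. With TMM scaling it had no call at either time. Ecsit, part of the assembly of the membrane arm, averaged 22.2 ± 2.31 CPM in vehicle, 6.75 ± 1.08 CPM at 6 h and 5.03 ± 0.587 CPM at 12 h, with changes of -1.71 and -2.14 (adjusted p = 5.45e-08 and 5.4e-09). Ndufaf1, which acts beside Ecsit, changed by -0.74 and -1.72 (adjusted p = 0.0017 and 5.25e-07), and Ndufaf6 by -2.90 and -1.18 (adjusted p = 1.26e-06 and 0.00265).

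Of the assembly factors of complex II, Sdhaf3, which helps Sdhb acquire its iron-sulfur clusters, changed by -2.85 and -0.95 (adjusted p = 2.47e-07 and 0.00406), and Sdhaf2, which helps Sdha acquire its flavin, by -0.56 and -0.18 (adjusted p = 3.44e-05 and 0.0793). In complex III 3 of 5 factors fell at each time, and Lyrm7 and Bcs1l, which stabilise and insert the Rieske protein, had the largest falls of that list. Lyrm7 averaged 8.79 ± 1.90 CPM in vehicle, 0.847 ± 0.345 CPM at 6 h and 0.555 ± 0.229 CPM at 12 h, and Bcs1l 19.3 ± 2.22, 3.37 ± 0.584 and 2.30 ± 1.30 CPM. Lyrm7 changed by -3.37 and -3.98 and Bcs1l by -2.52 and -3.04 (adjusted p = 5.73e-08, 2.16e-08, 1.32e-07 and 2.73e-08). In complex V 3 of 5 fell at each time, with Tmem70, which promotes assembly of the c ring, at -2.85 and -2.26 and Atpaf1, a chaperone of the head, at -2.03 and -1.24; Tmem242 was higher at 12 h by 0.48 (adjusted p = 0.00333; -0.100 with no normalization).

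The complex IV assembly factors were mixed, with 3 higher (18.75%) and 5 lower (31.25%) of 16 at 6 h and 2 higher (12.5%) and 6 lower (37.5%) at 12 h. With no normalization the counts were 1 and 12, and 0 and 9. With TMM scaling these shares were all below those of all genes. The copper chaperone Cox17 rose by 0.70 and 0.70 (adjusted p = 0.00106 and 0.00113), and Cox19, another factor of copper transfer, by 0.32 and 0.70 (adjusted p = 0.0406 and 0.000181). Sco1, which passes copper to the catalytic core, was higher at 6 h by 0.91 (adjusted p = 1.37e-05) and had no call at 12 h, at 0.16. Coa4 fell (-1.63 at 6 h and -1.96 at 12 h on the log2 scale), as did Taco1, an activator of mitochondrial translation of subunit 1 (-1.19 and -0.75), and Cox20, a chaperone of subunit 2 (-0.74 and -0.87).

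Among the mobile and flavin carriers, 5 of 6 fell and 1 rose at each time. Cytochrome c, Cycs, averaged 136 ± 5.71 CPM in vehicle, 102 ± 3.25 CPM at 6 h and 61.9 ± 4.14 CPM at 12 h, a change of -0.42 and -1.14 (adjusted p = 8.44e-05 and 5e-10). The electron transfer flavoprotein, which brings electrons from fatty acid oxidation, has 2 subunits that were called in opposite directions. Etfa rose by 0.40 and 0.88 (adjusted p = 7.78e-05 and 4.98e-09; the 6 h value was -0.14 with no normalization), and Etfb fell (-1.60 at 6 h and -1.50 at 12 h on the log2 scale; adjusted p = 2.61e-08 and 6.35e-08). Dhodh, a pyrimidine synthesis enzyme that feeds coenzyme Q, fell (-0.86 at 6 h and -0.46 at 12 h on the log2 scale).

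In coenzyme Q synthesis 6 of 10 genes were lower at 6 h and 6 at 12 h (60% each), and 1 (10%) and 3 (30%) were higher. Pdss2, which makes the isoprenoid tail, changed by -2.45 and -1.75, Coq9 by -1.95 and -1.72 and Coq7, a hydroxylase, by -2.21 and -0.70. Coq10b, a coenzyme Q binding protein, averaged 74.97 ± 3.08 CPM in vehicle, 302 ± 26.2 CPM at 6 h and 204 ± 27.6 CPM at 12 h, and rose by 2.01 ± 0.095 and 1.45 ± 0.094 (adjusted p = 3.08e-12 and 2.58e-10). Coq4 was higher at 12 h by 1.22 (adjusted p = 0.000128).

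The TCA cycle and pyruvate dehydrogenase, which supply NADH and succinate, had 9 of 16 genes lower (56.25%) and 4 higher (25%) at 6 h. At 12 h 10 were lower (62.5%) and 3 higher (18.75%). Under upper-quartile scaling and with no normalization 0 were higher at either time. Idh3a, a subunit of isocitrate dehydrogenase, fell, with changes of -1.43 and -0.91, as did Suclg1 of succinyl-CoA ligase (-1.42 and -1.30), Fh (fumarase, -1.38 and -1.64) and Ogdh of the oxoglutarate dehydrogenase (-0.99 and -1.58; largest adjusted p 9.18e-08, of Idh3a at 12 h). Dlst, of the same enzyme as Ogdh, was higher at 12 h by 0.36 and Pdhb, of pyruvate dehydrogenase, by 0.32, values of -0.22 and -0.26 with no normalization. Pdhb at 6 h, 0.35, and Pdhx, 0.50, were -0.19 and -0.039 with no normalization. Of the kinases and phosphatases that switch pyruvate dehydrogenase, Pdk3 fell (-0.92 at 6 h and -0.79 at 12 h on the log2 scale), as did Pdk2 (-0.56 and -0.81), and Pdp2 rose by 0.63 and 0.78, with 1 higher and 3 lower of 5 at 6 h and 1 and 4 at 12 h. The 6 h call of Pdk2 (adjusted p = 0.0492) was lost without any of vehicle replicates 1 and 2, PMA 6 h replicates 2 and 3 and PMA 12 h replicates 1, 2 and 3 (adjusted p from 0.057 to 0.223).

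Nuclear regulators of respiratory genes were mostly higher, with 6 higher and 2 lower of 8 tested at 6 h and 5 higher and 1 lower at 12 h, against 4 and 3, and 5 and 3, with no normalization. The medians were 0.75 and 0.93. Without both PMA libraries numbered 3 the 6 h median was 0.30, but there 9 genes were tested, so the 2 medians at 6 h cover different sets. Nrf1, the factor whose motif is shown above in Sdhb and Atp5g2, averaged 22.4 ± 3.58 CPM in vehicle, 66.7 ± 4.23 CPM at 6 h and 60.6 ± 3.08 CPM at 12 h, a rise of 1.58 ± 0.11 and 1.44 ± 0.11 (adjusted p = 6.57e-10 and 2.67e-09). Nrip1, a corepressor of nuclear receptors that restrains oxidative genes, averaged 39.4 ± 4.49 CPM in vehicle, 167 ± 9.22 CPM at 6 h and 162 ± 6.77 CPM at 12 h and rose by 2.08 and 2.04 (adjusted p = 6.67e-13 and 1.03e-12). Esrra, the estrogen-related receptor alpha, fell by 0.61 at 6 h (adjusted p = 8.66e-05) and had 0.041 at 12 h (adjusted p = 0.739), and Pprc1, a coactivator, fell (-0.47 at 6 h and -0.28 at 12 h on the log2 scale). The coactivators Ppargc1a and Ppargc1b stayed under 1 CPM in mean level in all groups and were not tested over all libraries.

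For expression of the mitochondrial genome 6 of 9 genes were lower at each time (66.7%), and 3 were higher at 6 h (33.3%) and 2 at 12 h (22.2%). The shares called higher were below the 37.8% and 37.7% of all genes. Both subunits of the mitochondrial DNA polymerase rose, Polg by 1.52 and 1.35 and Polg2 by 1.50 and 1.65 (largest adjusted p 5.03e-05). The ribosomal RNA methyltransferase Tfb1m fell (-2.54 at 6 h and -1.85 at 12 h on the log2 scale), as did Ssbp1, which coats single-stranded mitochondrial DNA (-1.92 and -2.81). Import and channel genes had 11 of 13 lower at 6 h, 10 at 12 h and 0 higher, among them Tomm40, the import pore, at -1.07 and -1.30 and Slc25a4, an ADP/ATP carrier, at -1.49 and -0.91.

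Among genes that regulate the use of the proton gradient, 2 rose and 1 fell at each time. Ppif, the regulator of the permeability transition pore known as cyclophilin D, had 50.5, 52.8 and 56.1 CPM in vehicle, 546, 608 and 596 CPM at 6 h and 1386, 1389 and 1567 CPM at 12 h. The 3 groups did not overlap, with changes of 3.46 ± 0.086 at 6 h, 10.99-fold (adjusted p = 1.13e-15), and 4.77 ± 0.091 at 12 h, 27.3-fold (adjusted p = 9.45e-17). Atpif1, the inhibitor that keeps ATP synthase from running backwards, averaged 139.8 ± 4.57 CPM in vehicle, 257 ± 19.5 CPM at 6 h and 255 ± 28.8 CPM at 12 h and rose by 0.88 and 0.87 (adjusted p = 5.01e-08 and 6.73e-08). Ucp2, an uncoupling protein, fell (-1.59 at 6 h and -0.80 at 12 h on the log2 scale; adjusted p = 3.39e-05 and 0.00908).

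**Figure D5:**
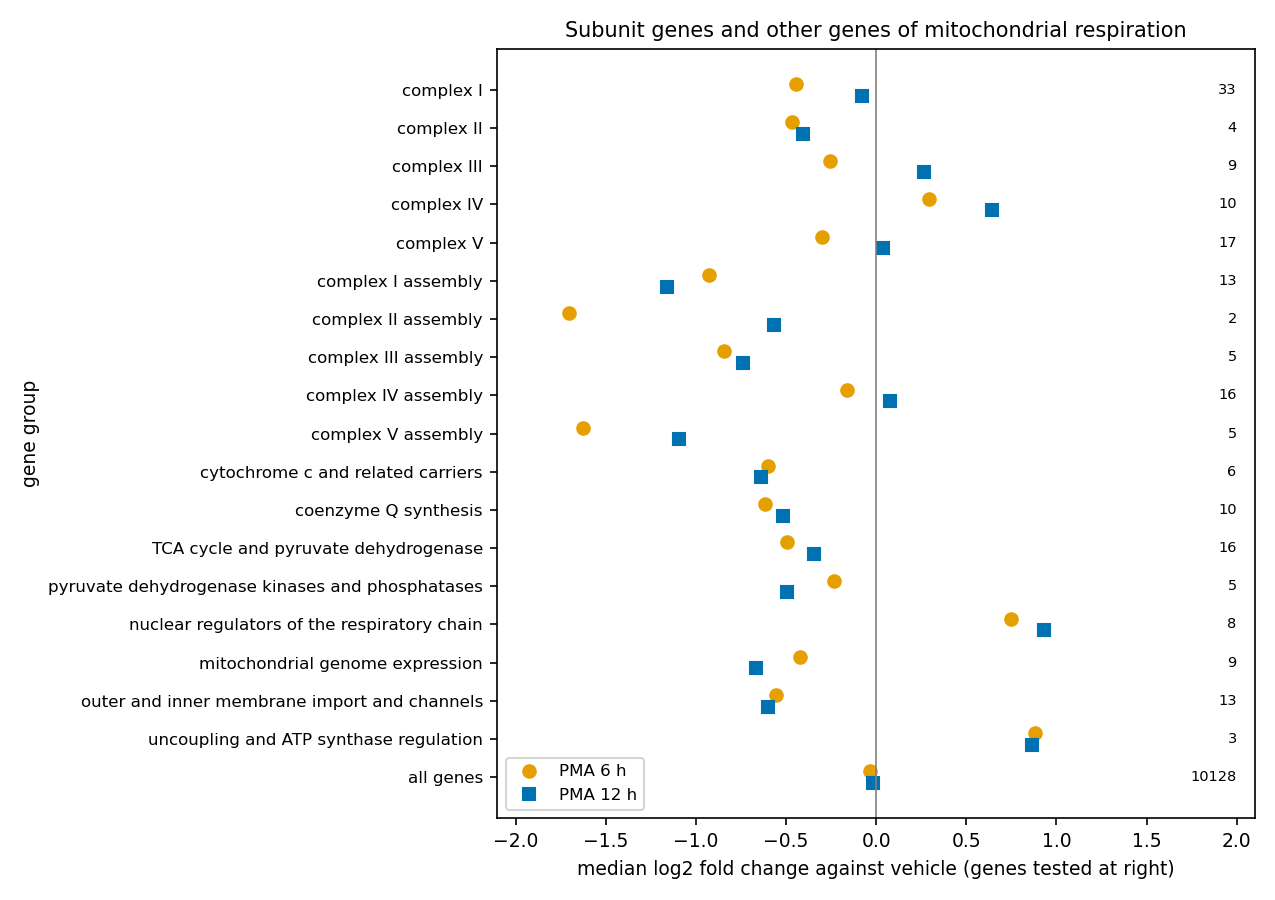
Median log2 fold change against vehicle (x axis) of the subunit genes of each complex and of other gene lists of mitochondrial respiration (rows) after 6 h and 12 h of 50 nM PMA, with the number of genes tested at the right and all tested genes in the bottom row. Complex I assembly factors were at -0.93 and -1.16 and nuclear regulators at 0.75 and 0.93; the complex IV median at 6 h and those of complexes III and V and of complex IV assembly at 12 h were below 0 with no normalization.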

How the data were processed

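The deposited tables hold raw read counts per gene, 1 table per library, in the layout of STAR's gene counts; per the submitters' processing notes the authors used STAR 2.7.5b on the rn6 build, and which gene annotation was used is not given in the sources here. The unstranded column was used, since the strand columns held 49.8% to 50.3% of their sum in every library. The 4 summary lines of each table were left out. The authors' table of values normalized with DESeq2 was not used, and its 9 columns were left out. In STAR's count tables only reads that map to 1 place are counted, so reads shared with near-identical copies, such as processed pseudogenes, are missing; their part in the results was not tested.

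Counts were filtered with filterByExpr at a minimum of 10, scaled by TMM and fitted over all 9 libraries with edgeR 4.0.16 in R 4.3.3 (robust quasi-likelihood fit, 1 mean per group). Each comparison was adjusted by Benjamini-Hochberg over 10128 genes, and calls are at an adjusted p under 0.05. The SE is the log2 fold change over the square root of F. CPM are counts per 1e6 of the TMM-scaled library total, and precision follows the spread between libraries (biological coefficient of variation 11.2%). Replicates of a group differed by more than sampling noise, with chi-square over its degrees of freedom from 3.91 to 28.8. The fit was tested on simulated data in which a small share of genes was changed, equally in both directions and at 6 h alone. Most genes were left unchanged there, so the simulation cannot test the scaling. Alternatives used DESeq2 1.42.0, limma 3.58.1, other scalings and filters, only the compared groups, the replicate number as a block and 1 library left out. Summed strand columns and a fit without both PMA libraries numbered 3 were added after the data were seen.

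Members and lists were chosen with earlier results of these data known. Named with library values are, against vehicle, the 6 called members with the largest changes each way and the largest of each complex, the catalytic subunits, the isoform pairs, the 4 largest called changes each way between 12 h and 6 h, and any member called in opposite directions. In other lists up to 2 called genes each way are named. Further members named in the text were chosen after their values were seen, and some results are not reported here. Promoters are those of RefSeq for GRCr8, not of the build of the counts.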

Additional observations from a re-analysis of the deposited data

Results flagged for a closer look

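A pair of complex I accessory subunits differed in direction between the times of PMA, and the difference itself passed edgeR's quasi-likelihood test. The opposite directions against vehicle rest on TMM scaling: at 12 h Ndufb7 and Ndufs4 were at 0.00015 and 0.032 under upper-quartile scaling, with no call, and at -0.31 and -0.28 with no normalization. Ndufb7 was 0.58 ± 0.12 log2 units higher at 12 h than at 6 h (adjusted p = 0.000528), with 61.1, 58.4 and 81.9 CPM at 12 h against 46.8, 46.9 and 41.2 CPM at 6 h. Ndufs4 was 0.54 ± 0.099 log2 units higher at 12 h than at 6 h (adjusted p = 0.00021), with 71.1, 62.8 and 78.7 CPM at 12 h against 46.7, 52.4 and 46.7 CPM at 6 h. In both genes all 3 libraries of 12 h were above all 3 of 6 h, and PMA 12 h replicate 3 was the highest library.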

How the results depend on the processing

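Scaling moved the counts against vehicle. With upper-quartile scaling 2 members were higher at 6 h, and 13 were higher and 37 lower at 12 h, with medians of -0.57 and -0.25. With no normalization 1 was higher and 63 lower at 6 h (median -0.85), and 4 higher and 47 lower at 12 h (median -0.57). With no normalization 10 called members turned negative at 6 h: Cox8a (-0.014), Atp5g2 (-0.076), Ndufa7 (-0.15), Cox5a (-0.19), Ndufa6 (-0.19), Atp5e (-0.20), Ndufb11 (-0.20), Uqcrh (-0.24), Cox6c (-0.25) and Uqcr10 (-0.31). At 12 h 14 did: Cox6a1 (-0.0073), Atp5l (-0.055), Ndufb11 (-0.083), Ndufa6 (-0.11), Cox7a2 (-0.11), Ndufb2 (-0.12), Uqcr10 (-0.15), Uqcrq (-0.20), Ndufa7 (-0.22), Ndufs7 (-0.25), Atp5h (-0.26), Ndufs4 (-0.28), Ndufb7 (-0.31) and Uqcrc1 (-0.32). With upper-quartile scaling Uqcr10 at 6 h (-0.026) and Uqcrc1 at 12 h (-0.0037) turned. Values that had no call, or of genes in the other lists, also became negative with no normalization, among them Atp5j2 (-0.35), Cox7a2 (-0.40), Etfa (-0.14), Pdhx (-0.039) and Pdhb (-0.19) at 6 h and Uqcrfs1 (-0.53), Atp5b (-0.54), Ndufs5 (-0.57), Ndufa11 (-0.57), Tmem242 (-0.100), Dlst (-0.22) and Pdhb (-0.26) at 12 h, and with upper-quartile scaling Uqcrfs1 (-0.22) and Atp5b (-0.22) at 12 h. Both alternatives omit the TMM factors, which were about 1.3 in vehicle and under 1 with PMA. Without both PMA libraries numbered 3, 18 members were higher and 2 lower at 12 h than at 6 h (median 0.14); the cause was not tested. Leaving out 1 library gave 9 to 14 members higher and 34 to 38 lower at 6 h (medians -0.36 to -0.27), 19 to 27 higher and 19 to 25 lower at 12 h (medians -0.042 to 0.068), and 24 to 42 higher and 1 to 3 lower between 12 h and 6 h (medians 0.22 to 0.36). The replicate block gave 10 higher and 36 lower at 6 h, 24 and 23 at 12 h and 33 and 1 between them. Deviations from the group mean correlated at -0.115 to 0.027 between same-numbered libraries and at -0.072 to 0.087 between others. No effect shared by replicate number was visible, but such correlations cannot show whether the libraries were paired. The DESeq2 Wald test, limma-voom, DESeq2 size factors, the stricter filter and summed strand columns each kept the sign and call of at least 147 of 149 single-gene results. Depth limits Ndufs6, Atp5f1 and Atp5s, which had 135 to 457 reads per group.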
